A study of Mus musculus with 4 samples.

Results

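The 33 genes described here are genes of microglia, the resident immune cells of the retina, as measured in RNA from sorted Müller glial cells. They were chosen by symbol, from a list of microglia genes named for this work, and all 33 were among the 24322 gene symbols of the files. The RNA came from mTFP-positive cells that were sorted by FACS from dissociated retinas of 4 mice, with 1 library per mouse. Control mice 7984 and 3911 were *Rax* flox/WT, and *Rax* iCKO mice 7983 and 3914 were *Rax* flox/flox. All 4 mice carried *Rlbp1-CreERT2* and *R26-CAG-LoxP-mTFP1*, had the strain label 129S6, and received tamoxifen at P4 before harvest at P14. The promoter of *Rlbp1*, a gene of Müller glial cells that the pigment epithelium also uses, drives the recombinase, so neither the deletion nor the fluorescent reporter was aimed at microglia. The controls had 1 floxed *Rax* allele themselves, and no mouse without the recombinase was sequenced among these libraries.

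Microglia enter the retina early in development, survey it with fine processes, and take up dying cells and synaptic material. They depend on the receptor Csf1r and its ligands Csf1 and Il34 for survival, and neurons and glia hold them in a resting state through signals such as Cx3cl1 and Tgf-beta. Resting microglia are recognised by a set of surface receptors that includes P2ry12, Tmem119 and Cx3cr1. They are also a main source of the complement protein C1q in nervous tissue.

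The files give FPKM, the fragments on a gene divided by its length and by the mapped fragments of the library. *Rax*, the deleted gene, was at 189.1 and 181.4 FPKM in controls 7984 and 3911, with 111 in *Rax* iCKO mouse 7983 and 98.4 in *Rax* iCKO mouse 3914. The 12 Müller glial markers checked were all present and summed to 8329 and 6088 FPKM in the controls, 5215 in mouse 7983 and 5040 in mouse 3914. Neuronal RNA was present as well, with 11 bipolar cell genes between 5264 and 11907 FPKM, above the Müller glial sum in 3 of the 4 libraries. The 14 rod genes summed to 2611 and 2646 FPKM in the controls, 1899 in mouse 7983 and 1681 in mouse 3914. In 11 of the rod genes the *Rax* iCKO values were each below both controls, as they were in 4 of the Müller glial markers, beside 14.5% of the genes above 0 in any library. The part of these differences in the microglial values was not tested. The mapped reads, estimated from whole-read steps in low FPKM values, were about 12720000 in mouse 7984, 9270000 in mouse 3911, 9430000 in mouse 7983 and 9310000 in mouse 3914. Sex-linked genes, looked at after the other values were seen, set the *Rax* iCKO libraries apart. *Xist*, the RNA that silences an X chromosome, was at 24.5 and 21.2 FPKM in the controls, 0.0119 in mouse 7983 and 0.0061 in mouse 3914. The Y-linked gene *Eif2s3y* was at 43.7 FPKM in mouse 7983 and listed at 0 in the other libraries. Mouse 3914 thus showed almost none of either RNA, and the 2 *Rax* iCKO mice differed from each other in Y-linked RNA. The part of sex in the microglial values was not tested, and the difference in *Xist* cannot be told apart from genotype.

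The microglia genes were at low levels and did not separate the genotypes. Their FPKM summed to 90.9 and 98.4 in control mice 7984 and 3911, and to 161 and 32.6 in *Rax* iCKO mice 7983 and 3914. The 2 *Rax* iCKO mice thus lay on either side of the controls. In FPKM as deposited, the control mean of 94.7 ± 5.37 (SD, n = 2) was close to the *Rax* iCKO mean of 97.0 ± 91.1 (SD, n = 2). The members made up between 0.0059% and 0.0328% of the summed FPKM of a library. In bulk RNA, fewer microglia among the sorted cells and less RNA per microglial cell cannot be told apart. The mean over the 4 libraries was at least 1 FPKM for 24 members and at least 5 FPKM for 4 of them, *C1qb*, *C1qc*, *Tyrobp* and *Lyz2*. At least 1 FPKM was reached by 20 members in each control, by 29 in mouse 7983 and by 7 in mouse 3914. The median member was at 1.83 and 1.92 FPKM in mice 7984 and 3911, 2.66 FPKM in mouse 7983 and 0.332 FPKM in mouse 3914.

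**Figure D1:**
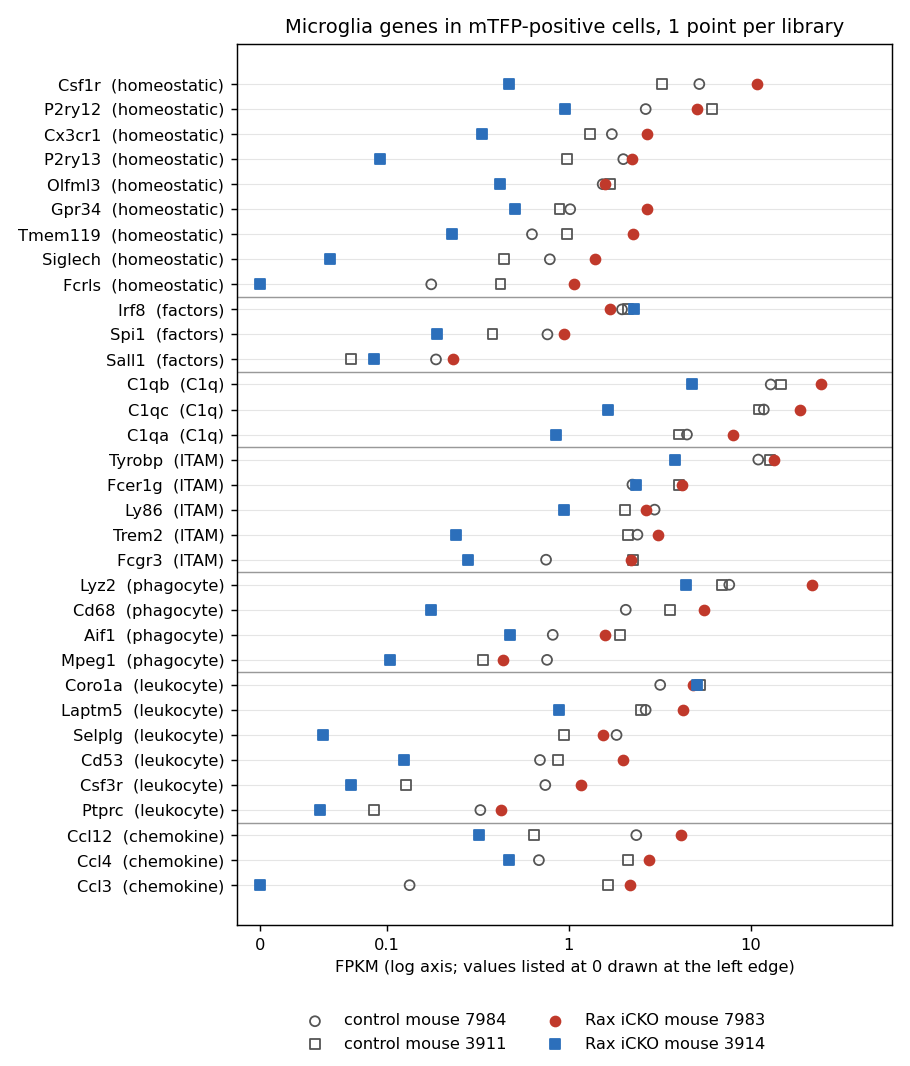
FPKM of the 33 microglia genes in each of the 4 libraries, on a log axis, with the genes grouped by role and 1 point per mouse. Mouse 7983 had the highest value for 24 genes and mouse 3914 the lowest for 29, with the control mice mostly between them.

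The same order of libraries recurred from gene to gene, a pattern seen only once the values were at hand. Mouse 7983 lay above both controls while mouse 3914 lay below both in 22 of the 33 members, or 66.7%. The same order held for 5.91% of the 17865 genes above 0 in any library, and for 8.74% of the 9120 genes whose means fell within the range of the members' means. The members come from 1 cell type and were measured in the same 4 libraries, so they are not independent of one another. The opposite order, with mouse 3914 above both controls and mouse 7983 below both, was seen for *Irf8* alone. No member had both *Rax* iCKO libraries below both controls, where 14.5% of genes did, and none had both above, where 13.7% did.

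Among the receptors and secreted proteins of resting microglia, all 9 were lowest in mouse 3914 and 7 followed the common order. *Csf1r*, the receptor on which microglia depend for survival, was at 5.21 and 3.25 FPKM in controls 7984 and 3911, 10.8 FPKM in mouse 7983 and 0.467 FPKM in mouse 3914. Its values in the 2 *Rax* iCKO mice therefore differed by 23.2-fold, with both controls between them. The fractalkine receptor *Cx3cr1* was at 1.72 and 1.30 FPKM in the controls, 2.68 in mouse 7983 and 0.332 in mouse 3914. The purine receptor *P2ry12*, which guides microglial processes to sites of ATP release, was highest in a control instead. It was at 2.64 and 6.10 FPKM in mice 7984 and 3911, 5.05 in mouse 7983 and 0.954 in mouse 3914. Its neighbour on chromosome 3, the purine receptor *P2ry13*, was at 1.99 and 0.972 FPKM in the controls, 2.23 in mouse 7983 and 0.0923 in mouse 3914. Both purine receptors were thus low in mouse 3914, but the controls ranked differently for each. *Tmem119*, a membrane protein used to identify resident microglia, was at 0.627 and 0.975 FPKM in mice 7984 and 3911, 2.26 in mouse 7983 and 0.229 in mouse 3914. *Gpr34*, a receptor for lysophosphatidylserine, was at 1.02 and 0.888 FPKM in the controls, 2.68 in mouse 7983 and 0.506 in mouse 3914. *Olfml3*, a secreted matrix protein, was close in 3 libraries, at 1.53 and 1.68 FPKM in the controls and 1.59 in mouse 7983, and lay outside them only in mouse 3914, at 0.419. *Fcrls* and *Siglech*, both with means under 1 FPKM, were between 0.0489 and 1.40 FPKM apart from *Fcrls* in mouse 3914, which was listed at 0. Summed over the 9 genes, FPKM were 15.7 and 16.0 in the controls, 29.8 in mouse 7983 and 3.05 in mouse 3914.

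The genes of the C1q subunits, *C1qa*, *C1qb* and *C1qc*, had the largest summed FPKM of the groups in every library but that of mouse 3914, where the ITAM group summed to 7.64 against 7.23 FPKM, and all followed the common order. They lie side by side on chromosome 4 of GRCm38, minus strand, *C1qb* from 136880129 to 136886187, *C1qc* from 136889804 to 136893065 and *C1qa* from 136895917 to 136898803. *C1qb* was at 12.9 and 14.6 FPKM in controls 7984 and 3911, 24.4 in mouse 7983 and 4.74 in mouse 3914. *C1qc* was at 11.8 and 11.1 FPKM in the controls, 18.6 in mouse 7983 and 1.64 in mouse 3914. *C1qa* was at 4.46 and 4.04 FPKM in the controls, 7.94 in mouse 7983 and 0.853 in mouse 3914. For each subunit the controls lay within a narrow range and the *Rax* iCKO mice far outside it on both sides. The C1q genes held 32.03% and 30.3% of the members' summed FPKM in the controls, 31.5% in mouse 7983 and 22.1% in mouse 3914. The ratio of *C1qb* to *C1qa* was 2.89 and 3.63 in the controls, 3.07 in mouse 7983 and 5.55 in mouse 3914.

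Promoter sequences are shown for members that moved together, with the purine-rich box bound by PU.1, the product of the member *Spi1*, in capitals. RefSeq promoters of GRCm38.p6, 250 bases before to 50 bases after each start, were found for 25 of the 33 members, the others being *Csf1r*, *Tmem119*, *Gpr34*, *Spi1*, *C1qa*, *Tyrobp*, *Selplg* and *Ccl4*. The letters searched on both strands were GAGGAAGT and the shorter GAGGAA, which the longer one contains. GAGGAAGT was in 2 of 25 member promoters (8%), *C1qc* and *Cd53*, against 3.69% of 27025 genes with a promoter. GAGGAA was in 15 of 25 (60%), against 31.3% of these genes. A match is only a match of letters, and binding was not measured. The stretches below lie before the RefSeq start, overlap no GENCODE exon and read 5′ to 3′ along the gene. The bases after the start were found near the start of a GENCODE transcript for 19 members, but not for *C1qb* and *Cd68*, whose RefSeq starts lie upstream of the GENCODE ones. They are chr4:136893072-136893139 of the minus strand for *C1qc*, chr4:136886201-136886260 of the minus strand for *C1qb*, chr11:69666360-69666420 of the minus strand for *Cd68* and chr17:48346331-48346396 of the plus strand for *Trem2*. In *C1qc* and *Trem2* the box is on the opposite strand to the gene, so its reverse complement is in capitals.
C1qc: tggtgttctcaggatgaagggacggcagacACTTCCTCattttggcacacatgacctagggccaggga
C1qb: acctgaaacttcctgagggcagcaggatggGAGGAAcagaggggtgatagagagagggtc
Cd68: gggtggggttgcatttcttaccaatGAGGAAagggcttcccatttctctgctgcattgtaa
Trem2: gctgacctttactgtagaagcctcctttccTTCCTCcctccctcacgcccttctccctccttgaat

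Of the 3 lineage transcription factors, 1 followed the common order. *Irf8*, an interferon regulatory factor that microglia need for their development, was at 1.96 and 2.12 FPKM in controls 7984 and 3911, 1.68 in mouse 7983 and 2.27 in mouse 3914. It was the one member lowest in mouse 7983 and highest in mouse 3914. *Spi1*, which encodes PU.1, followed the common order between 0.190 and 0.936 FPKM. *Sall1*, a factor that keeps microglia in their resting identity, was between 0.0639 and 0.230 FPKM, and its values correspond to 12, 3, 11 and 4 whole reads in mice 7984, 3911, 7983 and 3914. The sum of the 3 factors was between 2.55 and 2.91 FPKM in every library, most of it *Irf8*.

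Receptors and adaptors that signal through ITAM motifs, together with the endotoxin-response protein *Ly86*, were lowest in mouse 3914 in 4 of 5 genes. *Tyrobp*, the adaptor DAP12 through which *Trem2* signals, was at 11.0 and 12.7 FPKM in controls 7984 and 3911, 13.4 in mouse 7983 and 3.83 in mouse 3914. *Trem2*, a lipid-sensing receptor of microglia, was at 2.38 and 2.12 FPKM in the controls, 3.09 in mouse 7983 and 0.241 in mouse 3914. Receptor and adaptor were thus only slightly higher in mouse 7983 than in the controls and far lower in mouse 3914. *Fcer1g*, an adaptor of Fc receptors, was at 2.24 and 4.01 FPKM in the controls, 4.18 in mouse 7983 and 2.35 in mouse 3914. *Fcgr3*, a receptor for IgG, was at 0.750 and 2.24 FPKM in the controls, 2.21 in mouse 7983 and 0.279 in mouse 3914. *Ly86* was at 2.96 and 2.03 FPKM in the controls, 2.66 in mouse 7983 and 0.944 in mouse 3914. For *Fcgr3* and *Ly86* a control was higher than mouse 7983, and for *Fcer1g* control mouse 7984 was slightly lower than mouse 3914.

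Genes of the phagocyte cytoplasm, lysosome and granule summed to 11.2 and 12.8 FPKM in controls 7984 and 3911, 29.2 in mouse 7983 and 5.15 in mouse 3914. *Lyz2*, the lysozyme of myeloid cells, was at 7.61 and 6.92 FPKM in the controls, 21.7 in mouse 7983 and 4.39 in mouse 3914, and so carried most of the excess in mouse 7983. *Cd68*, a lysosomal membrane protein, was at 2.06 and 3.60 FPKM in the controls, 5.53 in mouse 7983 and 0.175 in mouse 3914. *Aif1*, the calcium-binding protein Iba1 used to stain microglia, was highest in control mouse 3911. It was at 0.816 and 1.92 FPKM in mice 7984 and 3911, 1.57 in mouse 7983 and 0.478 in mouse 3914. *Mpeg1*, a pore-forming protein of macrophages, was between 0.104 and 0.759 FPKM and highest in control mouse 7984. Its mean in *Rax* iCKO was 0.491 times that in control, which made it the one member whose group means differed by more than 2-fold. The groups overlapped for it as for the other members.

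Genes shared with other leukocytes were lowest in mouse 3914 in 5 of 6 cases. *Laptm5*, a lysosomal protein of blood cells, was at 2.64 and 2.50 FPKM in controls 7984 and 3911, 4.24 in mouse 7983 and 0.879 in mouse 3914. *Selplg*, the selectin ligand of leukocytes, was at 1.83 and 0.941 FPKM in the controls, 1.54 in mouse 7983 and 0.0446 in mouse 3914. *Coro1a*, an actin-binding protein of leukocytes, departed from the rest, at 3.18 and 5.24 FPKM in the controls, 4.79 in mouse 7983 and 5.08 in mouse 3914. An exon of *Coro1a* overlaps one of *Bola2*, which was at 85.7 and 156.3 FPKM in the controls, 74.5 in mouse 7983 and 134.5 in mouse 3914, and the split of reads between them is uncertain. The part of *Bola2* in the values of *Coro1a* was not tested. Exons of *Csf1r*, *Cx3cr1* and *P2ry12* also overlap another gene. *Ptprc*, *Cd53* and *Csf3r*, with means under 1 FPKM, were between 0.0431 and 1.99 FPKM, and all 3 were highest in mouse 7983 and lowest in mouse 3914.

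The chemokine genes *Ccl3*, *Ccl4* and *Ccl12*, whose products attract monocytes and other leukocytes, followed the common order, but on few reads. *Ccl12* was at 2.35 and 0.644 FPKM in controls 7984 and 3911, 4.12 in mouse 7983 and 0.321 in mouse 3914, which correspond to 10, 2, 13 and 1 reads. *Ccl4* was at 0.685 and 2.11 FPKM in the controls, 2.77 in mouse 7983 and 0.468 in mouse 3914, from 4, 9, 12 and 2 reads. *Ccl3* rested on 1 and 9 reads in the controls and 12 in mouse 7983, and was listed at 0 in mouse 3914. The controls themselves differed more for these genes than for the C1q genes.

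The depth behind the members was small in mouse 3914. From FPKM, transcript length and the estimated mapped reads, the 33 members together held about 1917 and 1337 reads in control mice 7984 and 3911, 2380 in mouse 7983 and 444 in mouse 3914. Members with under 10 reads numbered 4 and 9 in the controls, 0 in mouse 7983 and 19 in mouse 3914. *Csf1r* rested on about 298 and 136 reads in the controls, 460 in mouse 7983 and 20 in mouse 3914, and *Tmem119* on about 16, 18, 43 and 4. The estimated mapped reads of mouse 3914 were close to those of mice 3911 and 7983.

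The question the study's design puts to these genes is whether microglial RNA differed between control and *Rax* iCKO. Groups were compared with limma, on the log2(FPKM + 1) scale, for the 12363 genes whose mean was at least 1 FPKM. This is a scale that understates the change of low genes. Of the 24 members tested, 0 had a limma p adjusted over all genes under 0.05, against 0.0243% of all genes tested. At an unadjusted limma p under 0.05 the count was also 0 of 24, against 2.86% of all genes tested. The deleted gene *Rax*, below both controls in both *Rax* iCKO mice, was not called either. Its log2 fold change was -0.82, with a limma adjusted p of 0.9999. The median log2 fold change of the 24 members was -0.26, beside -0.00 for all genes tested, and 7 members had a positive value and 17 a negative one. Values ran from -0.79 (standard error 0.86) for *C1qc* to 0.42 (standard error 0.64) for *Lyz2*. *Csf1r* had -0.30 (standard error 0.92), *C1qb* -0.29 (standard error 0.65) and *Tyrobp* -0.62 (standard error 0.51). None of the 5 lay 2 standard errors from 0. With 2 mice against 2, an exact two-sided permutation test cannot give a p below 0.333. With a pseudocount of 0.1 the median was -0.57, *Csf1r* had -0.76 and the lowest member was *Selplg* at -1.54. A single library set the direction, since the median log2 fold change of the members was -0.90 without mouse 7983 and 0.49 without mouse 3914. The data therefore set no narrow limit on a difference between genotypes in either direction.

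**Figure D2:**
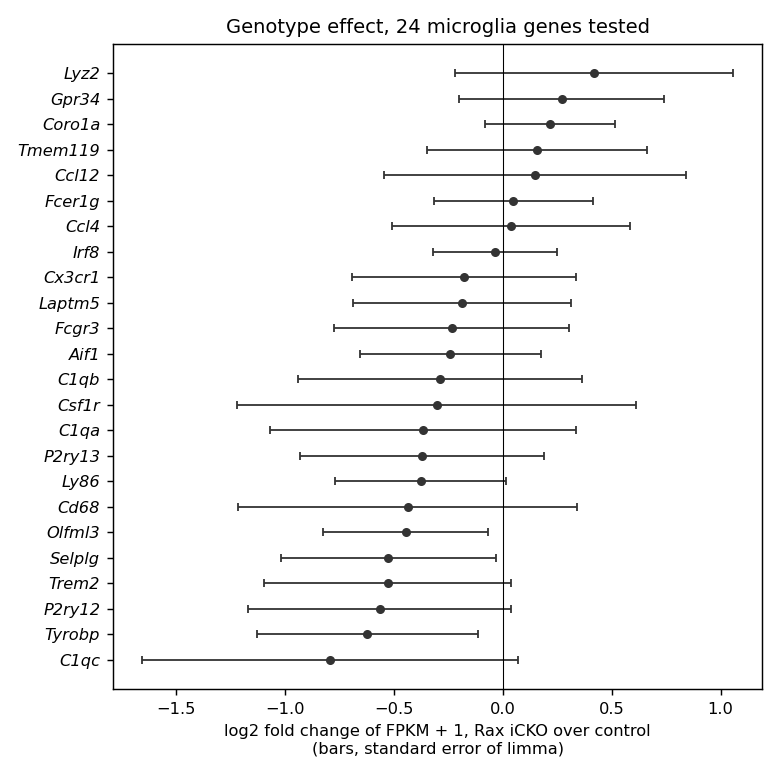
Log2 fold change of *Rax* iCKO over control, on the log2(FPKM + 1) scale from limma, for the 24 microglia genes with a mean of at least 1 FPKM, with bars of 1 standard error. The values run from -0.79 for *C1qc* to 0.42 for *Lyz2*, and 0 of the 24 had an adjusted p under 0.05.

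The mouse numbers form 2 runs, 7983 with 7984 and 3911 with 3914, each holding 1 control and 1 *Rax* iCKO mouse. What the numbers stand for is not given in the labels. Within the runs the members moved in opposite directions. Mouse 7983 was above mouse 7984 and mouse 3914 below mouse 3911 in 28 of 33 members, or 84.8%, against 18.7% of the 17865 genes above 0. The ratio of mouse 7983 to mouse 7984 had a median of 1.75 over the members and passed 2 in 10 of them, or 30.3%, against 8.51% of genes above 0 and 7.81% of those within the range of the members' means. The ratio of mouse 3914 to mouse 3911 had a median of 0.249 and was under 0.5 in 26 members, or 78.8%, against 13.7% and 12.4% of the same genes. Between the controls the median ratio of mouse 7984 to mouse 3911 was 1.06, with mouse 7984 higher in 18 members and mouse 3911 higher in 15. Single members differed between the controls by ratios from 0.0810 to 5.83. The *Rax* iCKO mice differed by a median of 5.92-fold over the 31 members above 0 in both.

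**Figure D3:**
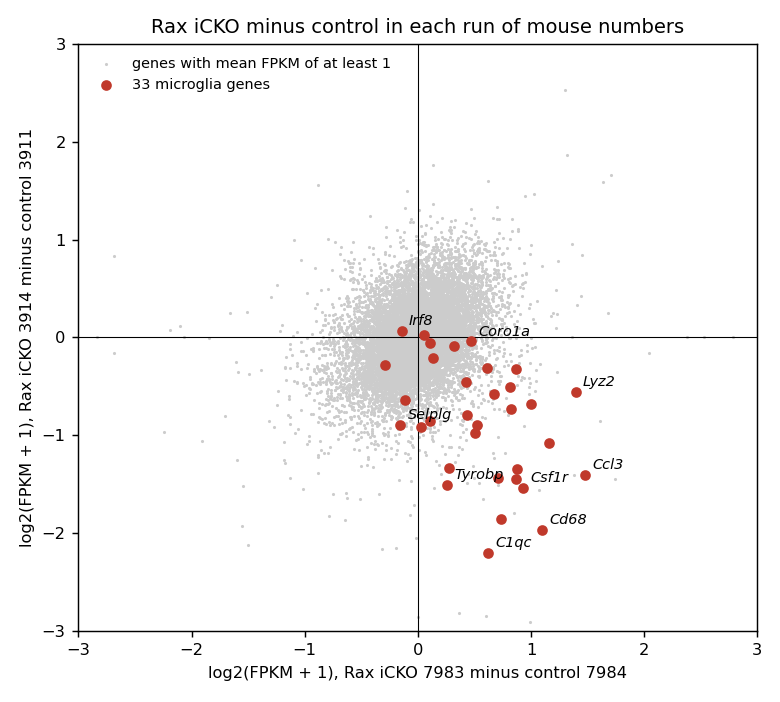
Difference in log2(FPKM + 1) between *Rax* iCKO and control within each run of mouse numbers, mouse 7983 minus 7984 on the horizontal axis and mouse 3914 minus 3911 on the vertical axis, with the 33 microglia genes over all 12363 genes tested. Most microglia genes sit to the right of 0 and below 0, with medians of 0.52 and -0.79, and 64 genes lie outside the plotted range of 3 in either direction.

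In a limma fit with genotype and run, 6 of the 24 members were higher in the run of mice 7983 and 7984 at an adjusted p under 0.05, and 0 were lower. Of all genes tested, 8.88% were higher in that run and 9.90% lower. The 6 were *Csf1r* (log2 difference 1.78, limma adjusted p = 0.0139), *Ccl12* (1.49, limma adjusted p = 0.00671), *C1qc* (1.49, limma adjusted p = 0.0366), *P2ry13* (1.08, limma adjusted p = 0.0318), *Lyz2* (1.10, limma adjusted p = 0.0402) and *C1qa* (1.19, limma adjusted p = 0.0478). This fit leaves 1 residual degree of freedom per gene. Its run term averages a run with a raised *Rax* iCKO library against one with a lowered *Rax* iCKO library, since mouse 7983 and mouse 3914 belong to different runs. Without genotype in the fit, 1 of the 24 members was called by run, beside 260 genes higher and 86 lower of all 12363 tested.

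A further 49 genes of microglia and related myeloid cells, from a list made for the same samples, leaned the same way to a lesser degree. The common order held in 17 of the 49, beside 5.91% of the 17865 genes above 0 in any library. Unlike the members, 8 of the list lay below both controls in both *Rax* iCKO mice and 3 above both, beside 14.5% and 13.7% of those genes. The sum of the list was 98.1 and 89.6 FPKM in controls 7984 and 3911, 128 in mouse 7983 and 52.2 in mouse 3914. *Ctss*, the protease cathepsin S, was at 16.3 and 13.8 FPKM in the controls, 24.8 in mouse 7983 and 3.71 in mouse 3914. *Mertk*, a receptor for dying cells that Müller glial cells and the pigment epithelium also express, was at 20.4 and 10.6 FPKM in the controls, 19.2 in mouse 7983 and 16.1 in mouse 3914. *Slco2b1*, a transporter, was the one gene of this list with a mean of at least 1 FPKM that lay above both controls in both *Rax* iCKO mice and was more than 2-fold higher in the mean, at 1.503 and 1.16 FPKM in the controls, 3.49 in mouse 7983 and 2.13 in mouse 3914. Its limma adjusted p was 0.9999.

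**Figure D4:**
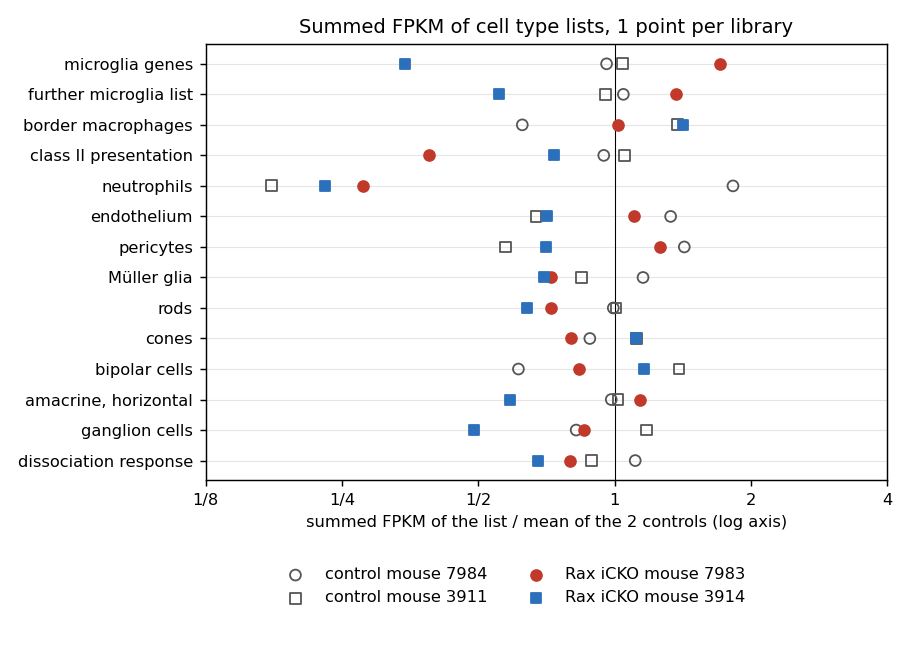
Summed FPKM of gene lists in each library, divided by the mean sum of the 2 controls, on a log axis with 1 point per mouse. The microglia genes were at 1.71 times the control mean in mouse 7983 and 0.345 times in mouse 3914. The further microglia list (1.37 and 0.556 times) and the amacrine and horizontal cell list had the same order of libraries, and the border macrophage, class II and neutrophil lists had other orders.

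Of the 8 genes of signals that maintain microglia, 0 showed the common order and 3 lay above both controls in both *Rax* iCKO mice, beside 5.91% and 13.7% of the genes above 0. *Csf1*, a ligand of Csf1r, was at 5.31 and 2.62 FPKM in controls 7984 and 3911, 2.67 in mouse 7983 and 3.23 in mouse 3914. *Il34*, its other ligand, was at 0.357 and 0.210 FPKM in the controls, 0.413 in mouse 7983 and 0.418 in mouse 3914. *Cx3cl1*, the ligand of Cx3cr1, was at 4.001 and 2.93 FPKM in the controls, 5.50 in mouse 7983 and 4.67 in mouse 3914, with a limma adjusted p of 0.9999. *Apoe* was at 5041 and 4232 FPKM in the controls, 3901 in mouse 7983 and 4193 in mouse 3914, *Tgfb2* lay between 113 and 139 FPKM, and *Gas6*, a bridge between dying cells and receptors such as Mertk, was at 45.1 and 50.5 FPKM in the controls, 58.7 in mouse 7983 and 87.4 in mouse 3914.

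Other immune cells gave lists with other orders. Border macrophage genes summed to 8.34 and 18.3 FPKM in controls 7984 and 3911, 13.5 in mouse 7983 and 18.9 in mouse 3914, most of it *Lyve1*, a gene lymphatic vessels also use. Class II antigen presentation genes summed to 15.3 and 17.0 FPKM in the controls, 6.28 in mouse 7983 and 11.9 in mouse 3914. The largest of them, *H2-Ab1*, made up most of that sum and was below both controls in both *Rax* iCKO mice. It was at 11.95 and 12.6 FPKM in the controls, 4.91 in mouse 7983 and 6.71 in mouse 3914, with a limma adjusted p of 0.9999. *Cd74* was at 2.47 and 2.84 FPKM in the controls, 1.14 in mouse 7983 and 2.99 in mouse 3914. *H2-Eb1* was at 0.481 and 0.660 FPKM in the controls, 0.0721 in mouse 7983 and 1.32 in mouse 3914. Neither of these separated the groups. The sum of the neutrophil genes was highest in control mouse 7984, at 31.7 FPKM against 3.03 to 4.84 in the other libraries. *S100a8*, a calcium-binding protein of neutrophils, was at 15.7 FPKM there, 0.556 in mouse 7983 and listed at 0 in mice 3911 and 3914. *S100a9* was at 8.77 FPKM in mouse 7984, 1.33 in mouse 7983 and listed at 0 in mice 3911 and 3914. *Cxcr2* went the other way, at 1.27 and 2.39 FPKM in the controls, 2.50 in mouse 7983 and 3.25 in mouse 3914. It made up most of the sum in every library but that of mouse 7984. *Mmp9* and *Il1b* were not highest in mouse 7984 either. Lymphocyte genes summed to under 1 FPKM in every library, from 0.191 to 0.922. Red cell genes summed to 4.78 and 14.7 FPKM in the controls, 10.5 in mouse 7983 and 0.316 in mouse 3914, so they too were lowest in mouse 3914. Their part in the microglial values, and that of the neutrophil genes, was not tested. Over the 20 lists beside the members, 105 genes were tested with limma, 0 had an adjusted p under 0.05 and 11 had an unadjusted p under 0.05, of which 4 were rod genes and 3 dissociation genes. These 11 of 105 stand beside 2.86% of all genes tested.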

How the data were processed

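RNA-seq libraries of mTFP-positive cells from 4 mice were used. Single-end reads had been aligned to mm10 by the authors (TopHat, Bowtie2, SAMtools), who deposited a table of FPKM for each library. The submitters' processing notes name TopHat2 2.1.1, Bowtie2 2.2.8, SAMtools 0.1.18 and Cuffdiff 2.2.1, while the paper names Cufflinks and other versions of the mapping tools. The labels name SMART-Seq HT and Nextera XT, which do not mark strand. FPKM were used as deposited, so a change in abundant genes shifts all others.

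Values of log2(FPKM + 1) were fitted in limma 3.58.1 (R 4.3.3) by lmFit and eBayes with a trend, for genes whose mean FPKM reached 1, and p-values were adjusted by Benjamini-Hochberg. The members were counted beside all genes, with no test over the list. Reads behind a gene were approximated as FPKM times mapped reads times the longest GENCODE M21 transcript less 200 bases. Whole reads were accepted where FPKM ratios between libraries gave them within 2%, for 6 members. Quartiles over the 267 genes that gave the depth of mouse 7983 were 9030000 and 9440000 reads. Both procedures were run on simulated data made with their own model or formula, which does not test how well they hold for the members. In the limma simulation the changed genes lay above the level of most members. Separate mice are the replicates, and since the labels give no replicate numbers, those used here follow accession order and pair no samples.

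The members, the other lists and the tests were chosen with earlier results of these data known. The genes named are the members, and, for lists beside them, the 3 genes with the highest mean FPKM and any gene with a mean of at least 1 FPKM whose groups did not overlap and differed by more than 2-fold. For the lists of other immune cells, red cells, the dissociation response, and retinal neurons, glia, pigment epithelium and vessels, only some of these are given. *Csf1*, *Il34* and *Cx3cl1* fall outside this rule and are given as ligands of the receptors *Csf1r* and *Cx3cr1*. For the neutrophil list, *Mmp9* and *Il1b* are also named outside it. One further gene that the rule names is not reported here. The alternatives tried were quantile normalization, equal medians, a pseudocount of 0.1, a filter at a mean FPKM of 5 or none, a fit without variance trend, a block for runs of mouse numbers, scaling to equal totals or equal Müller glial sums, and leaving out each mouse.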

Additional observations from a re-analysis of the deposited data

Results flagged for a closer look

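The difference between *Rax* iCKO and control in the microglia genes had opposite signs in the runs of mouse numbers. The members' summed FPKM in mouse 7983 was 1.78 times that in mouse 7984, and in mouse 3914 it was 0.331 times that in mouse 3911. The median difference in log2(FPKM + 1) over all 33 members was 0.52 in the first run and -0.79 in the other. Of the 33 members, 28 were higher in mouse 7983 than in mouse 7984 and lower in mouse 3914 than in mouse 3911. Each run holds 1 mouse of each genotype, so the difference between the runs was not tested.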

How the results depend on the processing

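With 4 libraries, 0 of the members tested passed limma's adjusted threshold under any alternative, with 24 tested except for 33 without a filter and 4 at a mean of 5 FPKM. Their median log2 fold change was -0.57 with a pseudocount of 0.1 and -0.45 at a mean of 5 FPKM, against -0.26. With a pseudocount of 0.1, 3 members changed sign, *Tmem119* at -0.0071, *Ccl4* at -0.046 and *Ccl12* at -0.019. The number of genes called by genotype, 3, was 0 without a filter, 0 with a filter at a mean of 5 FPKM, 6 with equal medians and 71 with the block by run of mouse numbers, which called 0 members. It was 15 to 20 when a mouse was left out. The members' summed FPKM in *Rax* iCKO was 1.03 times that in control as deposited. It was 1.17 times after scaling to equal total FPKM and 1.38 times after scaling to equal Müller glial sums. One member lay above both controls after each of these scalings. The share of all genes above both controls was not counted after scaling, and was 13.7% as deposited. By the study's own rule 0 members changed more than 2-fold, against 1 by the ratio of means. Genes called by run, 2322, fell to 346 without genotype in the fit and 746 without a filter, and members called by run, 6, to 1 and 2. With any mouse left out, the fit with run has no residual degrees of freedom.

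Leaving out a *Rax* iCKO mouse set the direction. The median member log2 fold change was -0.90 without mouse 7983 and 0.49 without mouse 3914. Without mouse 7983, 22 of 24 members were lower, 10 had an unadjusted limma p under 0.05 (2.09% of all genes tested) and 29 of 33 lay below both controls (29.3% of genes above 0). Without mouse 3914, 22 of 24 were higher, 3 had such a p (1.04%) and 24 of 33 lay above both controls (30.003%). In these fits the spread comes from the 2 controls and limma's prior, and the lone *Rax* iCKO library is assumed to vary like them. Over the 4 omissions, 0 to 10 members had such a p, 1 to 29 lay below and 1 to 24 above both controls, and the smallest adjusted p was 0.362. The ranges over the omissions for members that changed sign were *Csf1r* -1.81 to 1.20, *Cx3cr1* -0.91 to 0.56, *P2ry12* -1.38 to 0.25, *P2ry13* -1.15 to 0.41, *Tmem119* -0.55 to 0.86, *Gpr34* -0.37 to 0.92, *Irf8* -0.18 to 0.11, *C1qa* -1.50 to 0.77, *C1qb* -1.36 to 0.78, *C1qc* -2.24 to 0.66, *Tyrobp* -1.41 to 0.16, *Trem2* -1.39 to 0.33, *Fcer1g* -0.27 to 0.36, *Fcgr3* -0.90 to 0.43, *Ly86* -0.83 to 0.080, *Aif1* -0.64 to 0.16, *Cd68* -1.67 to 0.80, *Lyz2* -0.62 to 1.46, *Laptm5* -0.93 to 0.55, *Selplg* -1.17 to 0.12, *Coro1a* -0.074 to 0.51, *Ccl4* -0.64 to 0.72 and *Ccl12* -0.83 to 1.12. The cause was not tested. In mouse 3914, 19 of the 33 members rest on under 10 reads, which limits the precision of their values.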

Other observations

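Genes raised in activated microglia, which other cells also express, were led by *Cd63*, *Ctsd* and *Ctsb*, lysosomal genes, and summed to 1329 and 1238 FPKM in control mice 7984 and 3911, 1114 in mouse 7983 and 1123 in mouse 3914. Monocyte genes summed to 28.6 and 16.8 FPKM in the controls, 31.4 in mouse 7983 and 27.0 in mouse 3914. The matrix gene *Fn1* made up most of that sum, at 20.8 and 11.0 FPKM in the controls, 23.3 in mouse 7983 and 21.0 in mouse 3914.

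Genes that respond to cell dissociation summed to 4605 and 3690 FPKM in control mice 7984 and 3911, 3302 in mouse 7983 and 2812 in mouse 3914. Among them *Zfp36*, which destabilises cytokine mRNA, was at 67.6 and 55.8 FPKM in the controls, 37.5 in mouse 7983 and 24.01 in mouse 3914. Its limma adjusted p was 0.9999. The endothelial list summed to 496 and 412 FPKM in mice 7984 and 7983 and to 250 and 264 FPKM in mice 3911 and 3914, nearly all of it *Kdr*, a growth factor receptor. *Kdr* was at 463.6 and 385.1 FPKM in mice 7984 and 7983 and at 228.1 and 241.2 FPKM in mice 3911 and 3914, whereas *Esam*, an adhesion molecule of the same list, was at 4.18, 4.48, 5.34 and 6.36 FPKM in the same order of mice.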
